A study of Mus musculus with 14 samples.

Results

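Liver sinusoidal endothelial cells (LSECs) line the capillaries of the liver and clear glycans, immune complexes and cell debris from the blood. This section describes 7 C-type lectin-domain genes, Clec9a, Clec1b, Clec1a, Clec2d, Clec4g, Clec14a and Cd93, together with the ficolin gene Fcna, in LSECs sorted from aged and young mice. The 8 genes were selected on family membership with their aged and young levels in these libraries already known, and each was found through its gene symbol. Each had 1 amplicon target among the 23930 targets counted per library, and all 8 had enough reads to be among the 14168 targets tested.

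The 14 libraries came from female wild type C57BL/6J mice that carried no treatment other than age. The aged group was 10 to 11 months old (7 libraries) and the young group was 8 to 10 weeks old (7 libraries). Cells were sorted by flow cytometry from liver with a gate for dim CD45, high STAB2 and high CD146, and RNA was read with an Ion AmpliSeq panel for the mouse transcriptome, in which 1 short stretch of each transcript is amplified and counted. Experiment 1 held 3 libraries per age and experiment 2 held 4, and library names give the age, the experiment and the replicate (aged 1.3). Whether each library is a separate mouse is not stated, so errors cover the spread between libraries, part of which may be technical. Log2 levels in aged 1.1 differed from those in aged 1.2 with an SD of 0.31, the narrowest spread within a group of age and experiment. Young 1.1 with young 1.3 came next, at 0.43. Aged 1.1 and aged 1.2 are counted separately here, although their independence is not known.

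C-type lectin domains are protein folds that bind sugars, often with calcium, although several of the receptors bind proteins instead. Clec9a and Clec1b encode receptors with a single cytoplasmic tyrosine motif, the hemITAM, which signals through the kinase Syk. Clec9a is best known from dendritic cells, where it detects actin filaments exposed by dead cells, and Clec1b is best known as the platelet receptor for podoplanin. Clec4g, also called LSECtin, is a glycan-binding receptor of sinusoidal endothelium. Clec14a and Cd93 are endothelial membrane proteins that bind the matrix protein multimerin 2. Ficolins bind acetylated sugars with a fibrinogen-like domain and start the lectin pathway of complement through MASP proteases.

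Promoter sequence is shown for Clec9a and Clec1b, which are neighbours that read in the same direction, and for Fcna, which had the highest ratio of aged to young levels. Each run is the 250 bases before the annotated start, 5′ to 3′ along the gene, from RefSeq on GRCm38.p6. They lie at chr6:129408612-129408861 on the plus strand for Clec9a, at chr6:129397047-129397296 on the plus strand for Clec1b and at chr2:25627975-25628224 on the minus strand for Fcna. Capitals mark the letters AGGAAG or CGGAAG, a core that ETS transcription factors bind, or their reverse complement.
Clec9a: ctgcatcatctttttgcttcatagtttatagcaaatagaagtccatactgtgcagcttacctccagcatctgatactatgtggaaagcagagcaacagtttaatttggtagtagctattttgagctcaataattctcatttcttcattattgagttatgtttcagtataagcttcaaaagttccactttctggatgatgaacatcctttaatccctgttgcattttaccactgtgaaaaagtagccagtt
Clec1b: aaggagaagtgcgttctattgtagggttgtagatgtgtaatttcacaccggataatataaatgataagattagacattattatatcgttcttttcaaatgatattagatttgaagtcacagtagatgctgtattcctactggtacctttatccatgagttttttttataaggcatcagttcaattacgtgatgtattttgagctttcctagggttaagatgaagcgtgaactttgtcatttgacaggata
Fcna: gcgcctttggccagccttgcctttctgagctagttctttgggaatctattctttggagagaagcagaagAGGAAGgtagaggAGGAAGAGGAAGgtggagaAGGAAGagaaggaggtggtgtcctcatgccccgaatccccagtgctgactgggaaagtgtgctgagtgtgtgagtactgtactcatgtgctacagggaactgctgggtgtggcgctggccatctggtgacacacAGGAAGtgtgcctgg

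The Clec9a and Clec1b windows held no ETS core on either strand, whereas the Fcna window held 5, all on the plus strand, most of them in 1 purine-rich stretch and the nearest ending 10 bases before the start. An ETS core was found in 39.2% of the 32851 promoter windows of this length. The table gave a promoter for 6 of the 8 genes, all but Clec1a and Cd93, and an ETS core lay in the windows of Clec4g and Fcna. The GATA letters AGATAA, searched on both strands, were in none of the 6 windows and in 9.99% of all windows. The Clec1b and Clec9a windows had a GC content of 33.2% and 35.6%, against a median of 52.4% over all windows. These letter matches describe the windows only.

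Gene reads per library ranged from 6710403 to 13977361. Levels are in CPM, which sets each count against its library's TMM-adjusted total. Because each gene is read through its own amplicon, levels are compared between libraries and not between genes. All 15 LSEC marker genes had at least 5 CPM in every library, and Stab2, the receptor of the sort, lay between 1653 and 2166 CPM in aged libraries and between 1736 and 2372 CPM in young libraries. Of the 15, 13 had a negative log2 fold change, aged over young, and edgeR and DESeq2 called none over both experiments. A positive value was found in 13.3% of them and in 49.6% of all tested targets. Their sum ran from 21743 to 37360 CPM in aged libraries and from 27820 to 42050 CPM in young libraries. Aged 1.3 had the lowest of these sums and the highest sum of hepatocyte markers, 5055 CPM. Counting error was small for 7 of the 8 genes, with at least 394 reads in every library. Fcna had 17 to 208 reads, and its exact 95% Clopper-Pearson interval in young 2.4, the library with the fewest, ran from 1.07 to 2.93 CPM without TMM. These intervals cover counting error only.

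Age values of the 8 genes are a description, since the genes were chosen with this comparison known. None of the 8 passed an adjusted p under 0.05 in edgeR's quasi-likelihood test with experiment as a term, where 0.162% of all tested targets passed. At an unadjusted p under 0.05 there were 3 of the 8, Clec9a, Clec1b and Fcna, and 6.77% of all targets. DESeq2 called 2 of the 8, Clec9a and Fcna, and 1.03% of all targets. The median log2 fold change was 0.08 over the 8 genes and -0.00 over all targets, and 5 of the 8 and 49.6% of all targets had a positive value. In bulk libraries, a difference in the number of cells that carry a transcript and a difference in RNA per cell cannot be told apart.

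**Figure D1:**
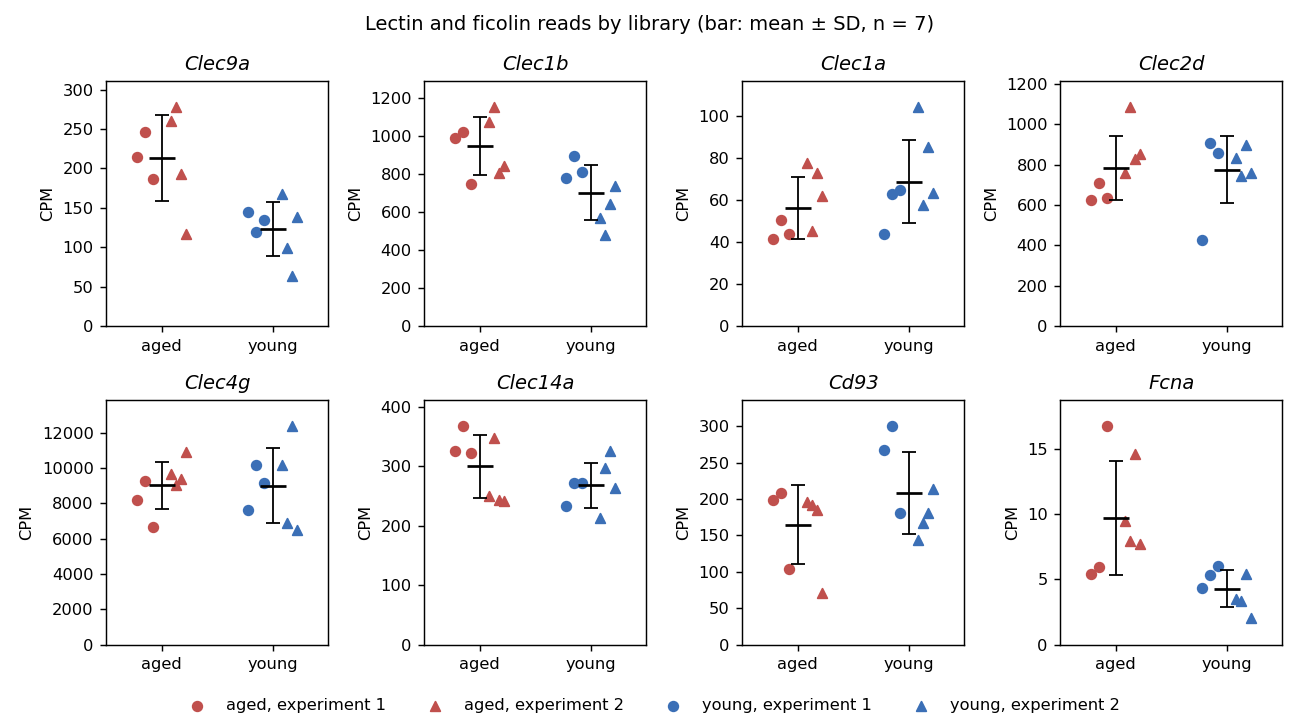
Level of each gene in every library (CPM after TMM, linear axes from 0), aged left of young, with circles for experiment 1, triangles for experiment 2 and the mean ± SD of 7 libraries in black. Clec9a lies above every young library in 6 of 7 aged libraries, while the ages overlap widely for Clec2d, Clec4g and Clec1a.

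Clec9a, the hemITAM receptor for exposed actin, had 214, 247 and 187 CPM in the aged libraries of experiment 1, against 144, 119 and 135 CPM in the young ones. In experiment 2 it had 260.0, 278, 193 and 117 CPM in aged libraries, against 167, 98.4, 63.0 and 138 CPM in young libraries. The ages did not overlap in experiment 1, with aged libraries higher, as for 6.87% of tested targets there. In experiment 2 aged 2.4 fell within the young range, so that 6 of 7 aged libraries exceeded every young library. None of the 8 genes had all 7 aged libraries above every young one, as 0.12% of targets did, or below every young one, as 0.113% did. Averages were 213.6 ± 54.5 CPM in aged libraries against 123.6 ± 34.2 CPM in young libraries (SD, n = 7 each), a ratio of 1.73 with a 95% interval from 1.26 to 2.39. All 7 aged libraries lay above the young mean of their experiment, which 2.36% of tested targets also showed.

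The difference in Clec9a was of like size in both experiments. Its log2 fold change was 0.86 (SE 0.30) in experiment 2 and 0.70 (SE 0.34) in experiment 1, and the difference between these was 0.16 (SE 0.45, unadjusted p = 0.734 in edgeR). The order of the 4 group means was aged experiment 1 (215.9 ± 29.9 CPM), aged experiment 2 (211.9 ± 73.0), young experiment 1 (132.7 ± 13.003) and young experiment 2 (116.7 ± 45.6). The neighbours within an age lay closer than the larger of their SDs, while the gap between aged experiment 2 and young experiment 1 was wider than either. Aged 2.4 and young 2.3 were the lowest libraries of their ages.

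Clec1b, the podoplanin receptor, had 988, 1018 and 745 CPM in the aged libraries of experiment 1, against 778, 892 and 811 CPM in the young ones. In experiment 2 it had 1074, 1149.8, 805 and 841 CPM in aged libraries, against 568.3, 479.6, 643 and 733 CPM in young libraries. Every aged library of experiment 2 exceeded every young one there, a pattern that 0.903% of tested targets showed. In experiment 1 aged 1.3 was below all 3 young libraries. The averages were 945.7 ± 150.7 CPM in aged libraries against 700.8 ± 144.6 CPM in young libraries (SD, n = 7 each), a ratio of 1.37 (95% interval 1.10 to 1.69).

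For Clec1b the log2 fold change was 0.67 (SE 0.17) in experiment 2 and 0.15 (SE 0.20) in experiment 1. The difference of 0.53 (SE 0.26) had an unadjusted p of 0.0678 in edgeR and did not pass adjustment (adjusted p = 0.9998). Group means ran from aged experiment 2 (967.3 ± 170.3 CPM) through aged experiment 1 (916.8 ± 149.9) and young experiment 1 (827.0 ± 58.3) down to young experiment 2 (606.1 ± 108.1). Of the neighbours in this order, the young groups of experiments 2 and 1 alone were separated by more than both their SDs. DESeq2 called Clec1b in experiment 2, and edgeR did not (adjusted p = 0.723).

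Clec9a and Clec1b lie side by side on the plus strand of chromosome 6, and GENCODE release M21 draws the gene spans as overlapping. How strand and shared reads were handled in the counting is not given in the sources, so a shared contribution to both counts cannot be told apart from separate signals. The ratio of Clec1b reads to Clec9a reads was not constant. It ran from 3.98 to 7.18 in aged libraries (median 4.14) and from 3.3995 to 10.2 in young libraries (median 5.39). Over the 14 libraries the log2 levels of the pair had a Pearson's r of 0.69 (permutation p = 0.00665, Benjamini-Hochberg adjusted p = 0.186 over 28 pairs) and a Spearman's rho of 0.67 (permutation p = 0.0117, adjusted p = 0.245). It was 0.71 within experiment 2 and 0.53 within experiment 1, 0.63 without the 2 libraries farthest from the median, and 0.39 within the 4 groups of age and experiment (exact permutation p = 0.297).

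The same stretch of chromosome 6 holds 9 protein-coding genes from Clec2d to Clec7a in the RefSeq order, 4 of them described here. Of the 5 others, 4 were tested, and 3 of these had a positive log2 fold change. Clec12b, next to Clec1b on the minus strand, averaged 9.48 ± 4.63 CPM in aged libraries against 10.5 ± 5.17 CPM in young libraries. Clec7a, the beta-glucan receptor at the end of the row, averaged 33.5 ± 28.9 CPM in aged libraries against 11.5 ± 9.91 CPM in young libraries. Clec12a, an inhibitory receptor of myeloid cells, averaged 8.00 ± 6.39 CPM in aged libraries against 2.81 ± 2.45 CPM in young libraries. Cd69, an activation marker of lymphocytes, averaged 9.46 ± 6.86 CPM in aged libraries against 4.39 ± 1.83 CPM in young libraries. Clec2m was too low to be tested.

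Clec1a, which lies beside Clec9a on the minus strand and recognises fungal melanin in mice, was lower on average in aged libraries. It had between 41.3 and 77.6 CPM in aged libraries (median 50.1) and between 43.7 and 103.9 CPM in young libraries (median 63.1). The ranges overlapped, yet 1 of 7 aged libraries alone lay above the young mean of its experiment. The averages were 56.0 ± 14.7 CPM in aged libraries against 68.6 ± 19.8 CPM in young libraries, a ratio of 0.812 (95% interval 0.643 to 1.03). Its log2 fold change was -0.27 (SE 0.22) in experiment 2 and -0.34 (SE 0.25) in experiment 1.

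Clec1a also had the smallest adjusted p of the 8 genes between the experiments, at 70.8 ± 18.2 CPM in experiment 2 and 51.0 ± 10.3 CPM in experiment 1 (log2 difference 0.48, SE 0.16, edgeR adjusted p = 0.0778). None of the 8 passed in that comparison, in which 7.79% of tested targets passed, and Clec1a alone had an unadjusted p under 0.05. The share of reads in olfactory, vomeronasal and taste receptor targets, which LSECs are not known to use, ran from 0.145 to 3.15% in aged and from 0.248 to 2.99% in young libraries, and Clec1a was on average lower where that share was higher. Pearson's r was -0.60 (permutation p = 0.024, adjusted p = 0.192 over 8 genes) and Spearman's rho was -0.77 (permutation p = 0.00168). The value was -0.54 without the 2 farthest libraries, -0.32 within experiment 2, -0.71 within experiment 1 and -0.43 within the 4 groups (exact permutation p = 0.246). Clec1a was not alone in this. Clec2d had a Spearman's rho of -0.55 with the receptor share (permutation p = 0.0439, not adjusted). Cd93 had an r of -0.22 over the 14 libraries and -0.63 within the 4 groups (exact permutation p = 0.0368, adjusted p = 0.295). What share of the Clec1a pattern the receptor reads account for was not tested.

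Clec4g, the LSECtin gene, differed little between the ages. It had between 6632 and 10915 CPM in aged libraries (median 9268) and between 6490.2 and 12394 CPM in young libraries (median 9158). The young range enclosed the aged range. The averages were 9014 ± 1330 CPM in aged libraries against 8991 ± 2118 CPM in young libraries, a ratio of 0.998 with a 95% interval from 0.767 to 1.30. Ratios within that interval are compatible with these libraries, and its ends are not a limit of detection.

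Clec2d, which encodes a membrane ligand of the inhibitory NKR-P1 receptors of natural killer cells, was likewise close to equal. It had between 624.6 and 1084 CPM in aged libraries (median 759.6) and between 424 and 906 CPM in young libraries (median 830.1). Aged 2.2 was the highest and young 1.1 the lowest of the 14. The averages were 784.4 ± 158.6 CPM in aged libraries against 773.4 ± 166.4 CPM in young libraries, a ratio of 1.005 (95% interval 0.796 to 1.27). The sign of so small a difference changed with the processing for both Clec2d and Clec4g.

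The vascular pair Clec14a and Cd93 had log2 fold changes of opposite sign over both experiments, 0.15 (SE 0.13) for Clec14a and -0.31 (SE 0.23) for Cd93. Clec14a, which is found on endothelium of growing vessels, had 325, 368 and 323 CPM in the aged libraries of experiment 1, against 233, 271 and 272 CPM in the young ones. These did not overlap, with aged libraries higher, as for 6.87% of tested targets in experiment 1. In experiment 2 it had 250.03, 346, 243 and 241 CPM in aged libraries, against 213, 297, 326 and 263 CPM in young libraries, with wide overlap. The log2 fold change was -0.02 (SE 0.16) in experiment 2 and 0.39 (SE 0.18) in experiment 1, and the difference of -0.41 (SE 0.24) had an unadjusted p of 0.107 in edgeR.

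Cd93, a receptor of endothelial adhesion and migration, had 199, 208 and 103 CPM in the aged libraries of experiment 1, against 267, 300.4 and 181 CPM in the young ones. In experiment 2 it had 196, 192, 184 and 71.4 CPM in aged libraries, against 144, 168, 181 and 214 CPM in young libraries. Aged 1.3 and aged 2.4 were the lowest of the 14, and the other 5 aged libraries lay within the young range. The ratio was 0.804 (95% interval 0.570 to 1.14). Mmrn2, the partner that Clec14a and Cd93 share, averaged 206.0 ± 32.1 CPM in aged libraries against 206.2 ± 46.5 CPM in young libraries.

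Fcna, which encodes a soluble ficolin known in mice from macrophages, had 5.42, 5.94 and 16.8 CPM in the aged libraries of experiment 1, against 4.32, 5.32 and 5.99 CPM in the young ones. In experiment 2 it had 9.52, 7.95, 14.6 and 7.71 CPM in aged libraries, against 3.53, 3.31, 5.44 and 2.02 CPM in young libraries. Every aged library of experiment 2 lay above every young one, as for 0.903% of tested targets, and in experiment 1 aged 1.3 alone did. Aged 1.3 and aged 2.3 were the highest of the 14. The averages were 9.70 ± 4.36 CPM in aged libraries against 4.28 ± 1.41 CPM in young libraries (SD, n = 7 each), a ratio of 2.30 (95% interval 1.42 to 3.74). The log2 fold change was 1.48 (SE 0.44) in experiment 2 and 0.85 (SE 0.49) in experiment 1.

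Macrophage transcripts differed among these libraries as well. The summed level of 12 Kupffer cell and macrophage markers ran from 37.5 to 295 CPM in aged libraries and from 37.2 to 119 CPM in young libraries. All 8 tested markers had a positive log2 fold change and edgeR called none of them (7 at an unadjusted p under 0.05). DESeq2 called 3, Vsig4, Folr2 and Cd163. Timd4, Marco, C1qa and C1qc, the 4 markers not tested, were under 5 CPM in every library. Others were well above that, with Vsig4 at 27.4 ± 16.3 CPM in aged libraries against 7.68 ± 5.43 CPM in young libraries and C1qb at 29.8 ± 23.5 CPM in aged libraries against 24.3 ± 8.76 CPM in young libraries. The part of these transcripts in the Fcna difference was not tested. Fcnb, the other mouse ficolin gene, had at most 0.0807 CPM in aged libraries and 0 CPM in young libraries.

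**Figure D2:**
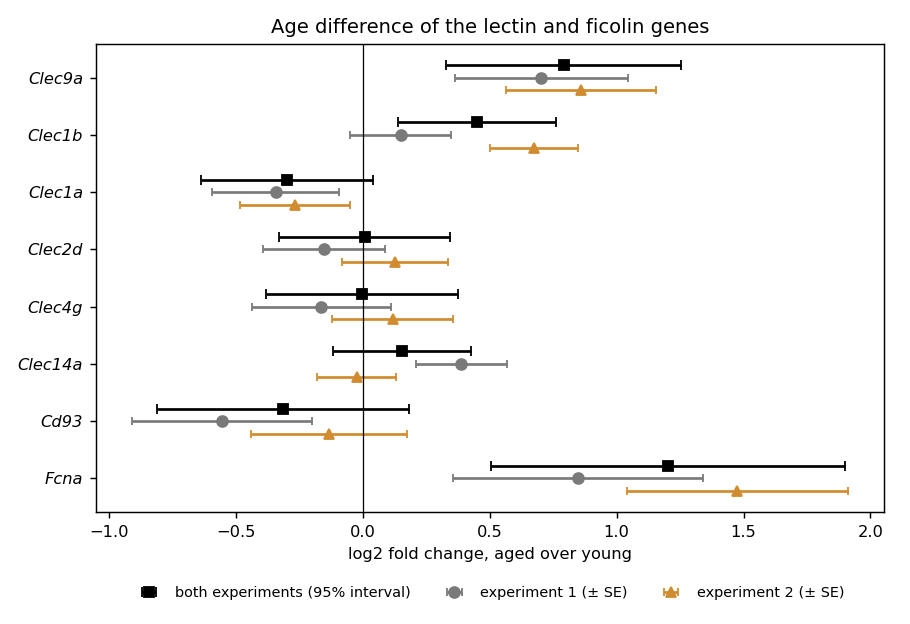
Log2 fold change, aged over young, for the 8 genes, with the estimate over both experiments (squares, 95% interval) and within experiment 1 (circles, ± SE) and experiment 2 (triangles, ± SE). Clec9a and Fcna lie to the right of 0 in both experiments, while Clec14a and Clec1b differ in size between experiments without passing the test of that difference.

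The test of the difference between the experiments called none of the 8 genes in edgeR and none in DESeq2, and none had an unadjusted p under 0.05. Over all tested targets it called 0 (0% of targets, with 309, or 2.18%, at an unadjusted p under 0.05). Within a single experiment edgeR called none of the 8, against 0.00706% of targets in experiment 2 and 0% in experiment 1. At an unadjusted p under 0.05 there were 3 of the 8 in experiment 2, where 2.79% of targets met it, and 0 in experiment 1, where 6.45% did. DESeq2 called Clec1b alone in experiment 2, with 0.374% of targets, and none of the 8 in experiment 1, with 0.607% of targets.

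The next comparison asked whether the 8 genes follow leukocyte transcripts that the sort let through. Ptprc encodes CD45, the pan-leukocyte phosphatase on which the gate was set. It had 11.4, 6.39 and 79.7 CPM in the aged libraries of experiment 1, against 5.56, 4.18 and 4.75 CPM in the young ones. In experiment 2 it had 46.1, 77.4, 18.2 and 3.33 CPM in aged libraries, against 28.7, 34.4, 5.85 and 1.43 CPM in young libraries. Aged 1.3 and aged 2.2 were the highest of the 14, and both ages held libraries under 7 CPM. The average log2 level of 14 tested pan-leukocyte genes, Ptprc included, is called the leukocyte score here. Ptprc had a Pearson's r of 0.94 with the average of the other 13, given as a description.

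None of the 16 relations of the 8 genes to Ptprc or to the leukocyte score passed Benjamini-Hochberg adjustment over the 14 libraries. Only the rank correlation of Clec9a with Ptprc had an unadjusted p under 0.05. The strongest were those of Fcna and Clec9a. Fcna had a Pearson's r of 0.52 with Ptprc (permutation p = 0.0573, adjusted p = 0.443) and a Spearman's rho of 0.45 (permutation p = 0.108, adjusted p = 0.574). Clec9a had a Pearson's r of 0.48 with Ptprc (permutation p = 0.083, adjusted p = 0.443) and a Spearman's rho of 0.55 (permutation p = 0.0441, adjusted p = 0.574). Without aged 1.3 and aged 2.2, r was 0.32 for Fcna and 0.34 for Clec9a.

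Within the experiments the relation of Fcna to Ptprc differed in size, with an r of 0.39 in experiment 2 (permutation p = 0.331) and 0.93 in experiment 1 (permutation p = 0.100). The value of experiment 1 comes with aged 1.3, where both transcripts were highest. With the leukocyte score, r for Fcna was 0.35 in experiment 2 (permutation p = 0.396) and 0.97 in experiment 1 (permutation p = 0.0343, not adjusted). For Clec9a, r with Ptprc was 0.57 in experiment 2 (permutation p = 0.140) and 0.40 in experiment 1 (permutation p = 0.502). After the mean of each of the 4 groups was subtracted, r with Ptprc was 0.47 for Fcna (exact permutation p = 0.187) and 0.36 for Clec9a (exact permutation p = 0.336). With the leukocyte score, r was 0.50 for Fcna and 0.42 for Clec9a over the libraries. Within the 4 groups it was 0.58 for Fcna and 0.38 for Clec9a. Among aged libraries alone, r with Ptprc was 0.54 for Fcna and 0.57 for Clec9a, and with the score 0.66 and 0.52. Among young libraries alone, r with Ptprc was 0.06 for Fcna and -0.01 for Clec9a, and with the score -0.17 and -0.12. These values by age were not tested.

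Among aged libraries, Clec9a was highest in aged 2.2 and aged 2.1, which had 77.4 and 46.1 CPM of Ptprc, and lowest in aged 2.4, which had the least Ptprc (3.33 CPM). Aged 1.3, with the most Ptprc, had the second lowest Clec9a of the aged libraries. Aged 1.1, aged 1.2 and aged 2.3, with 11.4, 6.39 and 18.2 CPM of Ptprc, had 214, 247 and 193 CPM of Clec9a. Among young libraries, Clec9a was highest in young 2.1, with 28.7 CPM of Ptprc, and lowest in young 2.3, with 5.85 CPM. Young 2.2, with the most Ptprc of the young libraries, had 98.4 CPM of Clec9a, and young 2.4, with the least, had 138 CPM.

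**Figure D3:**
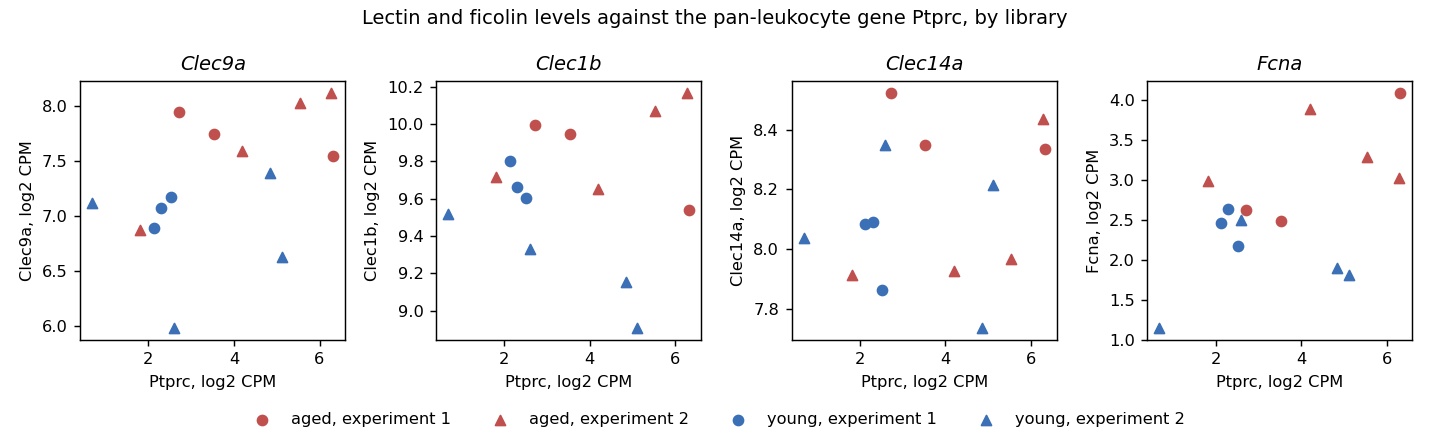
Log2 CPM of Clec9a, Clec1b, Clec14a and Fcna against log2 CPM of Ptprc in each of 14 libraries, with colours for age and shapes for experiment. The points scatter widely for Clec9a (r 0.48) and Fcna (r 0.52). For Clec1b they show hardly any slope over all libraries (r 0.03), with an r of -0.80 among young and 0.13 among aged libraries.

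The other 6 genes had weaker relations over the 14 libraries. Clec1b had an r of 0.03 with Ptprc and -0.03 with the score. Among young libraries alone its r was -0.80 with Ptprc and -0.90 with the score, and among aged libraries 0.13 and 0.03. These values by age were not tested. Over the 14 libraries, Clec14a had 0.19 with Ptprc, Clec2d had 0.10, Clec1a had -0.09, Clec4g had -0.15 and Cd93 had -0.21. Within experiment 1, Cd93 had an r of -0.89 with Ptprc (permutation p = 0.0388, not adjusted) and Clec4g had an r of -0.83 (permutation p = 0.0348, not adjusted). Both values come with aged 1.3, which had the most Ptprc and the least Cd93 and Clec4g of experiment 1. In experiment 2 the values were 0.28 for Cd93 and 0.05 for Clec4g, so the relation of experiment 1 did not appear there. None of the 16 relations passed adjustment within the 4 groups, where the smallest exact permutation p was 0.121, for Fcna with the score.

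**Figure D4:**
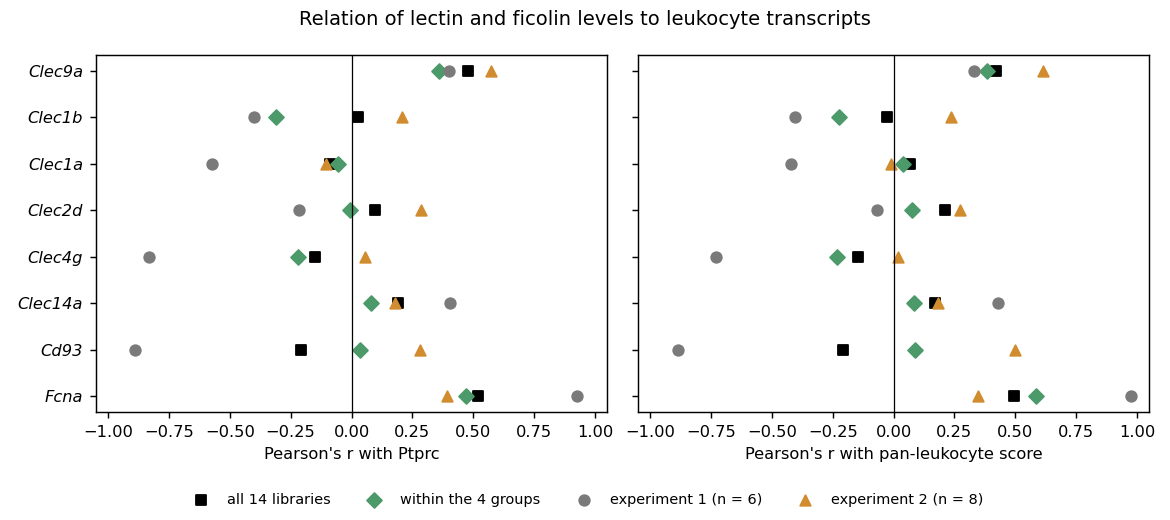
Pearson's r of each gene with Ptprc (left) and with the leukocyte score (right), over all 14 libraries, within the 4 groups of age and experiment, and within each experiment. Fcna and Clec9a are to the right of 0 in each of these, and Cd93 and Clec4g lie on opposite sides of 0 in experiment 1 and experiment 2 with Ptprc. Values within each age are not drawn.

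A leukocyte term was added to the age model in turn. With Ptprc as a term, the log2 fold change was 0.65 (SE 0.24) for Clec9a, 0.99 (SE 0.36) for Fcna and 0.52 (SE 0.17) for Clec1b, compared with 0.79 (SE 0.22), 1.20 (SE 0.33) and 0.45 (SE 0.14) without it. With the leukocyte score the values were 0.65 (SE 0.23) for Clec9a, 0.97 (SE 0.34) for Fcna and 0.51 (SE 0.17) for Clec1b. Clec1a stayed at -0.30 with the Ptprc term and Cd93 at -0.30. The estimates of Clec9a and Fcna were thus nearer to 0 with either term and that of Clec1b was farther from it. edgeR called none of the 8 in these fits, and the adjusted p of Clec9a and Fcna was 1 with either term, against 0.399 for Clec9a and 0.385 for Fcna without one. An adjusted p depends on all targets, of which edgeR called 3 with the Ptprc term and 6 with the score, against 23 without a term. The rise in adjusted p is therefore not a measure of the shift in these 2 genes. Whether the shifts in the estimates exceed chance was not tested.

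**Figure D5:**
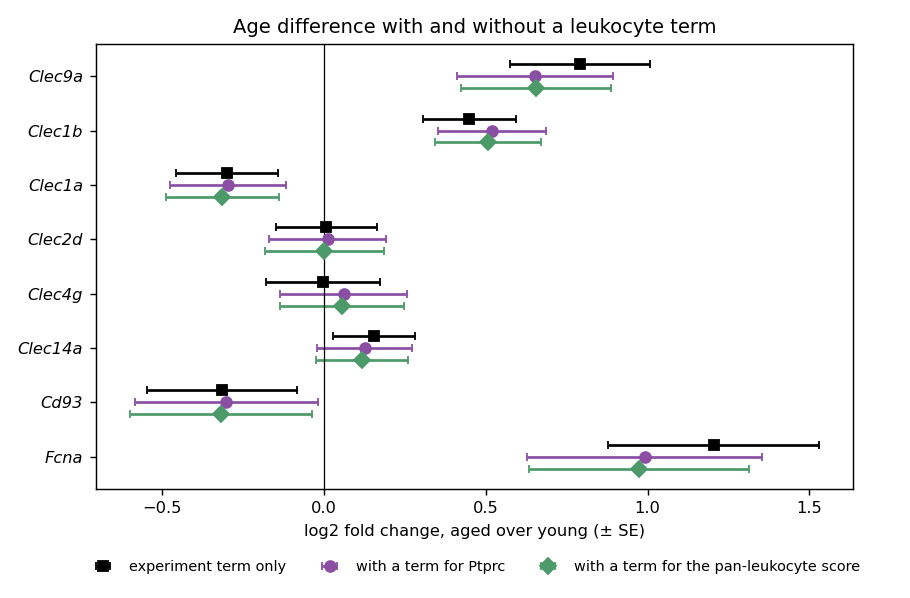
Log2 fold change, aged over young (± SE), with the experiment term only (squares), with an added term for Ptprc (circles) and with an added term for the leukocyte score (diamonds). Clec9a and Fcna lie somewhat closer to 0 with either leukocyte term, at 0.65 and between 0.97 and 0.99, and to the right of it.

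Transcripts of the cells best known for Clec9a and Clec1b were followed as well. Of 10 markers of conventional dendritic cells, the summed level ran from 286 to 699 CPM in aged libraries and from 346 to 602 CPM in young libraries. Most of that sum came from Zbtb46 and Irf8, so it says little about the markers at low levels. Zbtb46 was at 236.7 ± 80.0 CPM in aged libraries against 266.2 ± 64.6 CPM in young libraries, and Irf8 was at 164.5 ± 89.6 CPM in aged libraries against 184.0 ± 63.1 CPM in young libraries. Xcr1, which marks the dendritic cells that carry Clec9a, had at most 7.10 CPM in aged libraries against 0.817 CPM in young libraries and was at 0 in some of both. Batf3, Itgae and Cd209a were under 5 CPM in every library. Over both experiments edgeR and DESeq2 called none of the 7 tested markers, 4 of which had a positive log2 fold change, and 2 had an unadjusted p under 0.05. These were Wdfy4, at 18.7 ± 20.3 CPM in aged libraries against 3.16 ± 3.60 CPM in young libraries, and Naaa, at 6.54 ± 2.94 CPM in aged libraries against 2.95 ± 1.04 CPM in young libraries. Wdfy4 is needed for cross-presentation by these dendritic cells. The part of dendritic cell transcripts in the Clec9a difference was not tested.

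The 9 platelet and megakaryocyte markers summed to between 56.5 and 111 CPM in aged libraries and to between 32.4 and 89.0 CPM in young libraries. Gp9, Gp6 and Treml1 were under 5 CPM in every library. Pf4 averaged 19.8 ± 4.15 CPM in aged libraries against 21.8 ± 6.52 CPM in young libraries. Gp1bb averaged 19.5 ± 17.6 CPM in aged libraries against 15.3 ± 9.65 CPM in young libraries, and Itgb3, an integrin subunit that endothelium also carries, averaged 23.6 ± 11.5 CPM in aged libraries against 11.8 ± 3.57 CPM in young libraries. Over both experiments edgeR and DESeq2 called none of the 6 tested markers, with Itgb3 alone at an unadjusted p under 0.05. The part of platelet transcripts in the Clec1b values was not tested. The pan-leukocyte list summed to between 267 and 1740 CPM in aged libraries and to between 219 and 794 CPM in young libraries. Lcp1 alone had at least 113 CPM in every library, so the low end of this sum says little about the genes at low levels. All 14 tested genes of the list had a positive log2 fold change, with a median of 1.96. Over both experiments edgeR and DESeq2 called none of the 14, with 10 at an unadjusted p under 0.05. At an unadjusted p under 0.05 there were 0 in experiment 2, with 2.79% of all targets, and 12 in experiment 1, with 6.45%. DESeq2 called 1 in experiment 1. The aged sum of experiment 1 was high in 1 library, with 1740 CPM in aged 1.3 against 288 CPM in aged 1.1 and 267 CPM in aged 1.2. The young libraries of that experiment had 219, 230 and 244 CPM.

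The signalling partners of the hemITAM receptors include genes that leukocytes also express. Of 9 tested genes, 8 had a positive log2 fold change, with a median of 1.61, and none was called by edgeR or DESeq2 (6 at an unadjusted p under 0.05). Syk, the kinase that binds the phosphorylated hemITAM, had between 0.833 and 37.9 CPM in aged libraries (median 6.90) and between 0.436 and 10.7 CPM in young libraries (median 1.43). Plcg2, the phospholipase downstream of Syk, averaged 8.17 ± 7.44 CPM in aged libraries against 3.58 ± 3.22 CPM in young libraries. Ptpn6, the phosphatase SHP-1, averaged 26.6 ± 26.3 CPM in aged libraries against 7.47 ± 9.02 CPM in young libraries. These 3 genes had SDs close to their means in both ages. The adaptor gene Lcp2 varied less, at 260.4 ± 79.7 CPM in aged libraries against 188.4 ± 37.8 CPM in young libraries (log2 fold change 0.44, SE 0.17).

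Ligands and binding partners had no direction in common. Of 6 tested, 2 had a positive and 4 a negative log2 fold change, with a median of -0.03, none called by edgeR or DESeq2 and 1 at an unadjusted p under 0.05, Rhoj. Pdpn, the ligand of Clec1b, had at most 1.497 CPM in aged libraries against 4.76 CPM in young libraries and was at 0 in some of both. Igfbp7, a matrix ligand of Cd93, averaged 2675 ± 440.1 CPM in aged libraries against 2760.4 ± 508.9 CPM in young libraries. Masp1, a protease of the lectin pathway, averaged 278.8 ± 45.1 CPM in aged libraries against 303.1 ± 67.2 CPM in young libraries. Rhoj, an endothelial GTPase, averaged 395.8 ± 90.5 CPM in aged libraries against 485.9 ± 109.4 CPM in young libraries (log2 fold change -0.31, SE 0.13).

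Of 60 further C-type lectin-domain, collectin and ficolin genes, 58 had a target and 35 passed the filter on low counts. Among the 35, 27 had a positive and 8 a negative log2 fold change, with a median of 0.53, and edgeR and DESeq2 called none of them (12 at an unadjusted p under 0.05). The 4 with the smallest p among those of at least 5 CPM on average are best known from other cell types. Clec4f, the Kupffer cell lectin in mice, averaged 26.2 ± 19.7 CPM in aged libraries against 8.36 ± 7.66 CPM in young libraries. Clec7a stood as given above. Cd209b, a receptor of marginal zone macrophages that has also been described in LSECs, averaged 61.3 ± 28.03 CPM in aged libraries against 27.98 ± 11.2 CPM in young libraries, and DESeq2 called it in experiment 2. Fcer2a, the low-affinity IgE receptor of B cells, ranged from 0.312 to 42.5 CPM in aged libraries against from 0 to 9.08 CPM in young libraries. Mrc1, the mannose receptor that LSECs share with macrophages, averaged 2635 ± 557.8 CPM in aged libraries against 2431 ± 337.4 CPM in young libraries.

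Genes with the profile most like each lectin were found by Pearson's r over the 14 libraries after the mean of each experiment was subtracted, among 11745 targets with at least 5 CPM on average. For Clec9a these were Ppm1h, Slc7a6 and Samd12, at an r of 0.89, 0.85 and 0.84. For Clec1b they were C2, Fuca2 and Cdk19, at 0.90, 0.88 and 0.88. For Clec1a they were Stx17, Slc25a37 and Gbp5, at 0.89, 0.87 and 0.87. For Fcna they were Lactb2, Klf12 and Gsr, at 0.87, 0.87 and 0.84. No 2 of these 4 genes shared a nearest gene, and neither Ptprc nor a gene of the pan-leukocyte list was among the 12. Both outcomes were likely with only 12 genes taken from 11745 targets, so they cannot show whether the lectins follow leukocyte transcripts. The mean of each age was not subtracted, so a difference between the ages remains part of these values of r.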

How the data were processed

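The authors deposited unnormalised read counts per RefSeq transcript target, 1 table per library, from Ion AmpliSeq libraries of sorted LSECs. HTSeq 0.6.0 and DESeq2 1.18.1 are named per the submitters' processing notes, with no aligner, build or strand setting given in the sources used here. Bookkeeping rows (1.24 to 3.04% of reads) were left out. Targets were named through RefSeq tables of GRCm38.p6 (18128 with version, 4324 without), then GENCODE (110); 1368 unmatched targets stayed in the tests.

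Counts were fitted on all 14168 targets kept by filterByExpr with edgeR 4.0.16 (R 4.3.3, TMM, quasi-likelihood F test, experiment and age as terms), and with 4 means of age by experiment for the contrasts within experiments and their difference. Adjusted p-values are Benjamini-Hochberg over all targets, with a threshold of 0.05; the SE is the size of the log2 fold change over the square root of F. Relations across libraries used log2 CPM (prior count 2) and 100000 two-sided permutations, or all 20736 permutations within the 4 groups. Steps were tested on simulated data, with 50 changed targets for each size of change. The age test recovered 4 of those simulated with a 1.5-fold change. It found 20 where the change was 2-fold and 33 where it was 4-fold. Among 13968 unchanged targets it called 3. A missing call at ratios of 2 or less therefore says little about whether levels differ. DESeq2 1.42.0, other scalings, filters and terms, a replicate block and leaving out each library were the alternatives.

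The 8 genes and the gene lists were chosen with earlier results of these data known, so their age values are a description. Named genes were the 8, Ptprc, up to 4 tested genes per family list with the smallest p and a mean of at least 5 CPM, every called gene on those lists, and 3 genes of most similar profile for each of 4 members. Neighbours were named by position and markers for a low level. Stab2, Mrc1, Mmrn2, Lcp1, Zbtb46, Irf8, Wdfy4, Naaa, Pf4, Gp1bb, Itgb3, C1qb, Vsig4, Folr2 and Cd163 were named after their values were seen.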

Additional observations from a re-analysis of the deposited data

Results flagged for a closer look

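Clec2d in young 1.1, at 424 CPM, stood apart from the other young libraries, the next lowest of which had 742 CPM. It was the only library set apart in this way among 18 groups of levels checked, where chance sets apart about 1 in 20 groups. Without young 1.1 the log2 fold change of Clec2d, aged over young, was -0.09 (SE 0.13), against 0.01 (SE 0.16) with it.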

How the results depend on the processing

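edgeR called none of the 8 genes in any alternative, and DESeq2 called Clec9a (log2 fold change 0.77, adjusted p = 0.0489) and Fcna (1.19, adjusted p = 0.0301). Over 24 alternatives the log2 fold change ran from 0.65 to 0.89 for Clec9a, from 0.97 to 1.34 for Fcna, from 0.38 to 0.53 for Clec1b and from -0.37 to -0.21 for Clec1a. The sign turned for Clec4g (0.066 without TMM, 0.0037 without the experiment term, 0.022 with the replicate block, 0.00054 with a receptor term, 0.060 with Ptprc, 0.055 with the score, and -0.084 to 0.087 leaving out single libraries) and for Clec2d (-0.012 without the filter, -0.025 without young 2.2 and aged 2.4, -0.00044 in DESeq2, and -0.085 to 0.090 leaving out single libraries).

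Over all targets 23 were called (11 higher and 12 lower in aged). The count was 46 without TMM (28 higher, 18 lower), 12 without the experiment term, 59 with a receptor term (28 higher, 31 lower), 36 without young 2.2 and aged 2.4, 3 with Ptprc, 6 with the score, 4 with aged 1.1 and 1.2 summed, 146 in DESeq2 (65 higher, 81 lower), and 4 to 29 leaving out single libraries. For experiment 1 (0 called) it was 1 without TMM, 2 with a receptor term and 86 in DESeq2. For experiment 2 (1 called) it was 5 without TMM, 21 with a receptor term, 53 in DESeq2 and 1 to 3 leaving out single libraries. The cause was not tested.

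With a replicate block 5 targets were called over both experiments and 0 in experiment 2. Same-numbered libraries deviated together with an r from -0.38 to 0.78, and 3 of 7 correlated best with their own number, so the numbers are not taken to pair libraries. Leaving out single libraries gave 0 to 1 leukocyte relations past adjustment: without aged 2.4, Cd93 with the score (r -0.70, adjusted p = 0.0490), and within the 4 groups without young 2.4, Clec4g with Ptprc (r -0.69, adjusted p = 0.0247). Depth limits Fcna above all, at 17 reads in its lowest library.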
